A study of Sus scrofa with 15 samples.

Results

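HOX genes were followed in Longissimus muscle, a long muscle of the back, of 15 pigs at 20 kg body weight. A literal search for HOX gene names among the 43603 non-control probes found 5 probes, named HOXA11B, HOXA13, HOXD10A, HOXD12 and HOXD13. A further 14 were tied to a HOX gene through their accession or gene ID in the RefSeq gene table, or through the description printed beside them, which gave 19 probes under 13 gene labels, beside 5299 gene symbols named on the array in all. HOXA11 and HOXC4 were singled out for their values on these same arrays, HOXA11 for its spread between pigs and HOXC4 for its difference between lines, so their levels and differences are given as a description, with no p of their own.

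Selection of these lines was for high or for low residual feed intake (RFI), the part of feed intake that an animal's maintenance and growth do not account for. The low_RFI line (labelled RFIneg, the more efficient animals) had 7 pigs and the high_RFI line (RFIpl) had 8. All were fed ad libitum, and the RNA of each pig was hybridised to its own 1-colour array. The labels give neither the sex of the pigs nor the place along the muscle that was sampled. The arrays also carry numbers in their names, from 1 to 8 or from 55 to 62, and the labels do not say what these numbers mark. Arrays 55-62 held 3 low_RFI and 4 high_RFI pigs, and arrays 1-8 held 4 of each line.

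HOX genes encode homeodomain transcription factors that lie in clusters named A, B, C and D. Within a cluster, genes with low numbers are used from the head and neck backwards, and genes with high numbers in the lumbar, sacral and limb regions, so that the set of active genes records the position of a tissue along the body. This positional pattern is largely kept in adult connective tissue and muscle, while HOXA10 and HOXA11 are best known for patterning lumbosacral vertebrae and the limb, and HOXC4 for the neck and upper trunk. In muscle, HOXA11 marks part of the muscle precursors of the limb bud, as shown in chick.

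The identity of a probe decides what its value can mean, so the 60-base probes behind the main results are shown here, 5′ to 3′, with capitals marking the longest run shared with any other HOX probe on either strand. For 3 of them a stretch of 30 bases is given.
HOXA11 probe 1: tactgtgaagtTACATGCAtaaaagggtca
HOXA11 probe 3: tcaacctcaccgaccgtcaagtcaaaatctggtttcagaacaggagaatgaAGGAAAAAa
HOXA10: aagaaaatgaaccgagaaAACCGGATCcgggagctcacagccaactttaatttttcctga
HOXC4 probe 1: ttggactgaattTACTTGAttattgtaaaa
HOXC4 probe 2: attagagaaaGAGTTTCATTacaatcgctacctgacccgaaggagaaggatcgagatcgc
HOXD3/D1 probe 1: tttattgattcAAATTGTCTggtactattt
HOXD3/D1 probe 2: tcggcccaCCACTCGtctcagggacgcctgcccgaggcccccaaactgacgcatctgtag
HOXA10 and HOXA11 probe 1, whose levels moved together across pigs, share no run longer than 6 bases on either strand. Over all 19 probes the longest shared run was 7 to 10 bases. HOXA11 probe 1 holds a stop codon in all 3 forward reading frames, whereas HOXA11 probe 3 has 2 frames open.

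Some names in the files disagree with the gene table. HOXA11 probe 1 is called HOXD10A in the files, but its accession belongs to HOXA11 in the RefSeq table, and it is reported as HOXA11 here. HOXA11 probe 2 is tied to the gene only by partial likeness to a fish protein, and HOXA11 probe 3 by an Ensembl description. The 2 probes of HOXC4 share a gene ID. HOXD3/D1 probe 2 is described as HOXD3 in the files while its gene ID is HOXD1 in the RefSeq table, so both names are kept. The tie of HOXB3, HOXD8 and HOXB13 probe 1 also rests on partial likeness to a protein of another species. HOXA11B is tied by its printed gene name alone and is counted as a label of its own. The pig RefSeq table lists 36 HOX genes, and those with no matching probe were not analysed here.

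The share of probes that the scanner software marked as well above background was 61.7% to 79.4% per array, with no saturated spot. Values are levels, log2 of the processed signal minus the 75th percentile of the array. Levels of different probes are not compared as amounts, since probes differ in efficiency. Skeletal muscle markers were high on all arrays, with a mean level of 10.34 for ACTA1, skeletal alpha-actin, and 10.04 for CKM, muscle creatine kinase. Since whole tissue was measured, fewer cells of a type and less RNA per cell cannot be told apart.

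In the A cluster, HOXA4 was well above background in all 15 pigs, HOXA11 probe 1 in 12, HOXA10 in 10, HOXA11B in 7 and HOXA13 in 1. HOXA11 probe 2 was above background in 13 pigs and probe 3 in 10. In the B cluster, both HOXB13 probes were above background in 15 pigs and HOXB3 in none. HOXC4 probe 1 was above background in all 15 and probe 2 in 10. In the D cluster, both HOXD3/D1 probes and HOXD8 were above background in 15 pigs and HOXD10 probe 1 in 11. HOXD10 probe 2 was above background in 1, and HOXD12 and HOXD13 in none. By their labels, detected probes thus came from every cluster and from low, middle and high positions. The undetected ones were HOXB3, at a low position, and HOXD12 and HOXD13, at high positions. Of these labels, HOXD8 and HOXB3 rest on partial likeness alone. Altogether 7 of 19 probes were above background in every pig, and 14 probes under 9 labels reached the minimum of 7 arrays needed for testing.

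**Figure D1:**
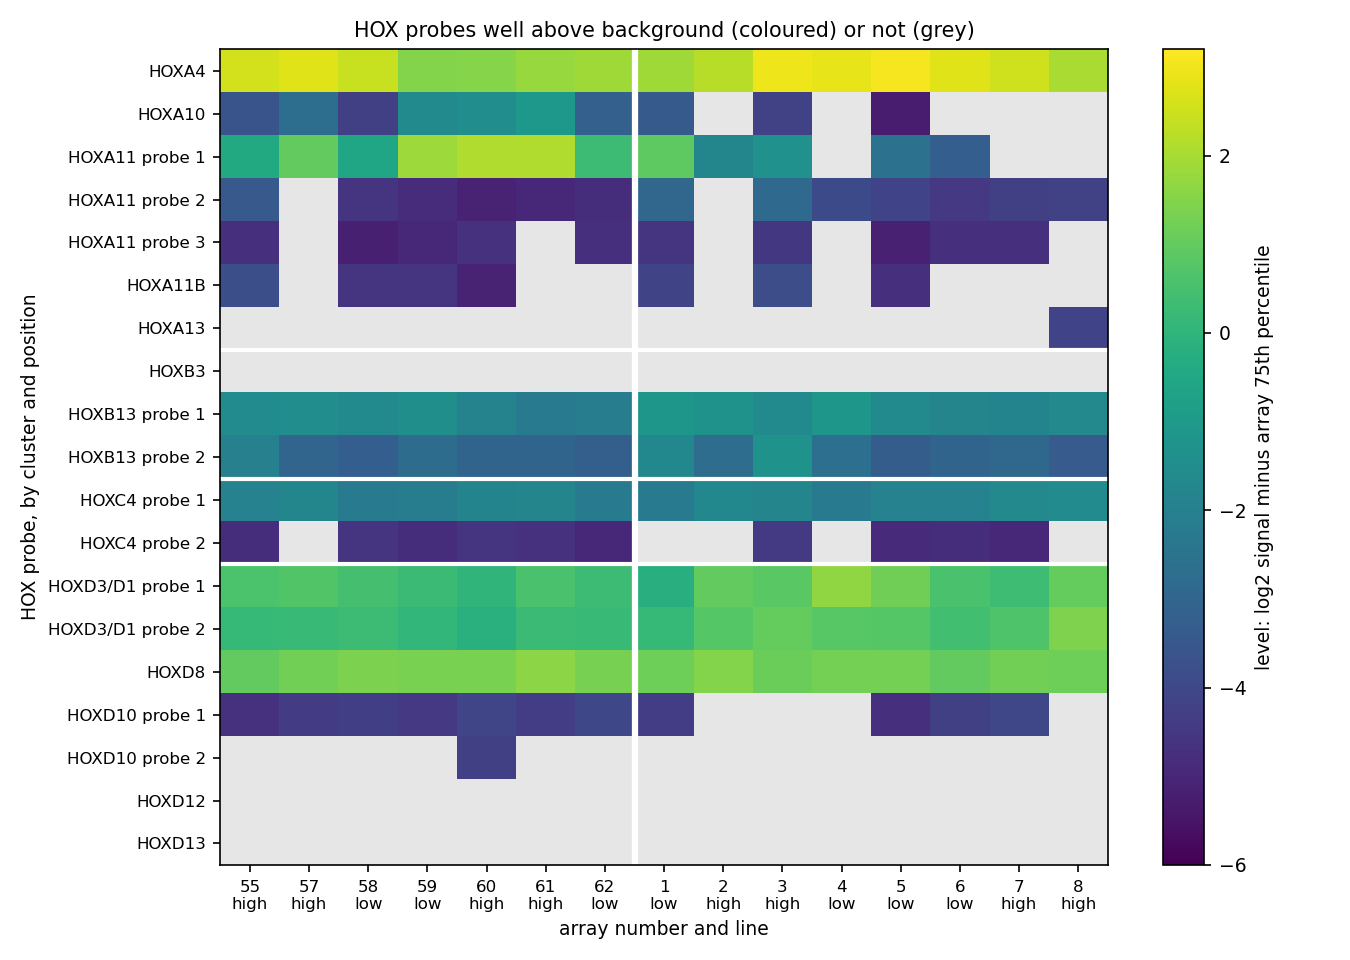
Level of the 19 HOX probes (rows, by cluster and position) on each of the 15 arrays (columns, numbers 55 to 62 left of the line and 1 to 8 right of it, with the line of the pig below). Colour gives the level where the probe was well above background and grey marks arrays where it was not. HOXA11 probe 1 and HOXA10 are coloured on all 7 arrays of the left block, and HOXB3, HOXD12 and HOXD13 are grey throughout.

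HOXA11 probe 1 varied more between pigs than any other tested probe: its SD of 3.03 over 15 pigs ranked 1 of 31984, against a median SD of 0.280. Its processed signal ran from 1546 in low_RFI pig 6 down to 2.09 in high_RFI pig 3, where it was not above background. Among the 12 pigs in which it was above background the highest level was 41.0-fold the lowest. The next gene in its cluster, HOXA10, had an SD of 1.79, which ranked 45. With normexp background correction, run with an offset of 50, the SD of HOXA11 probe 1 was 1.54 and ranked 8. That of HOXA10 was 0.608 and ranked 650. With dim values raised to the lowest level above background on their array, the SD was 2.48 (rank 3) for HOXA11 probe 1 and 1.41 (rank 101) for HOXA10.

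The high and low pigs of HOXA11 were not those of one line. In low_RFI pigs 1 to 7 the levels of probe 1 were 0.92, -6.34, -2.56, -3.24, -0.57, 1.84 and 0.30. In high_RFI pigs 1 to 8 they were -1.77, -1.34, -7.38, -5.00, -0.41, 0.99, 2.12 and 2.11. The lines overlapped over nearly their whole ranges. The mean was -1.38 ± 2.84 in low_RFI pigs and -1.33 ± 3.39 in high_RFI pigs (SD, n = 7 and n = 8), a difference of -0.044 ± 1.48 (SE). The level was below background in low_RFI pig 2 and in high_RFI pigs 3 and 4, all on arrays numbered 1-8.

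By array number, HOXA11 probe 1 was higher on arrays 55-62. Its lowest, median and highest levels were -0.57, 0.99 and 2.12 on arrays 55-62, against -7.38, -2.90 and 0.92 on arrays 1-8. The sets overlapped through 1 pig, low_RFI pig 1, whose array is numbered 1 and whose level of 0.92 exceeded 3 of the 7 levels on arrays 55-62. The mean was 0.91 ± 1.16 on arrays 55-62 and -3.34 ± 2.76 on arrays 1-8 (SD, n = 7 and n = 8), and the difference with line as a covariate was 4.27 ± 1.05 (SE). The probe was not above background on 3 of the 8 arrays numbered 1-8. The size of the difference changed with the handling of background. It was 2.26 ± 0.47 (SE) with normexp background correction. With dim values raised to the lowest level above background on their array it was 3.68 ± 0.80 (SE). What made these sizes differ was not tested. As first measured the difference was 3.32 among low_RFI pigs and 5.08 among high_RFI pigs. Within slides 1, 3 and 4 it was 5.46, 4.56 and 6.51, but within slide 2, which held 1 array of 55-62 and 2 of 1-8, it was -0.20. Without slide 2 the difference was 5.51 ± 0.94 (SE).

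HOXA10, the neighbour of HOXA11 in the RefSeq table, showed nearly the same order of pigs. Its lowest, median and highest levels were -4.26, -2.68 and -1.09 on arrays 55-62, against -6.82, -5.38 and -3.38 on arrays 1-8. It was above background on 7 of 7 arrays numbered 55-62 and on 3 of 8 numbered 1-8, and 2 pigs of the second set, low_RFI pig 1 at -3.38 and high_RFI pig 2 at -4.22, lay within the first. The mean was -2.56 ± 1.20 on arrays 55-62 and -5.28 ± 1.12 on arrays 1-8 (SD, n = 7 and n = 8), a difference of 2.71 ± 0.56 (SE). The difference was 3.54, 3.18 and 3.46 within slides 1, 3 and 4 and 0.19 within slide 2. It was 2.12 among low_RFI pigs and 3.21 among high_RFI pigs.

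HOXD3/D1 and HOXA4 had lower means on arrays 55-62. Over the 14 tested HOX probes 8 were lower and 6 higher there, with both signs at low and at high positions. At high positions HOXA11 probe 2 differed by -0.68 and the HOXB13 probes by -0.22 and -0.30. At low positions the only positive difference was that of HOXC4 probe 2, a dim probe, at 0.30 ± 0.19 (SE). Its lowest level, -6.20 in low_RFI pig 2 on arrays 1-8, was not above background. The brighter HOXC4 probe 1 differed by -0.13 ± 0.07 (SE). HOXD3/D1 probe 2 had lowest, median and highest levels of -0.16, 0.23 and 0.29 on arrays 55-62, against 0.17, 0.76 and 1.42 on arrays 1-8. Again the pig on arrays 1-8 that lay within the other set was low_RFI pig 1. The difference was -0.61 ± 0.15 (SE) and was negative within every slide, at -0.64, -0.46, -1.03 and -0.28. HOXD3/D1 probe 1 differed by -0.39 ± 0.22 (SE), with values of -0.85, 0.27, -0.86 and -0.03 within slides 1 to 4. HOXA4 had lowest, median and highest levels of 1.48, 1.88 and 2.76 on arrays 55-62 and 1.87, 2.65 and 3.09 on arrays 1-8, a difference of -0.48 ± 0.24 (SE), which was 0.14 within slide 2.

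**Figure D2:**
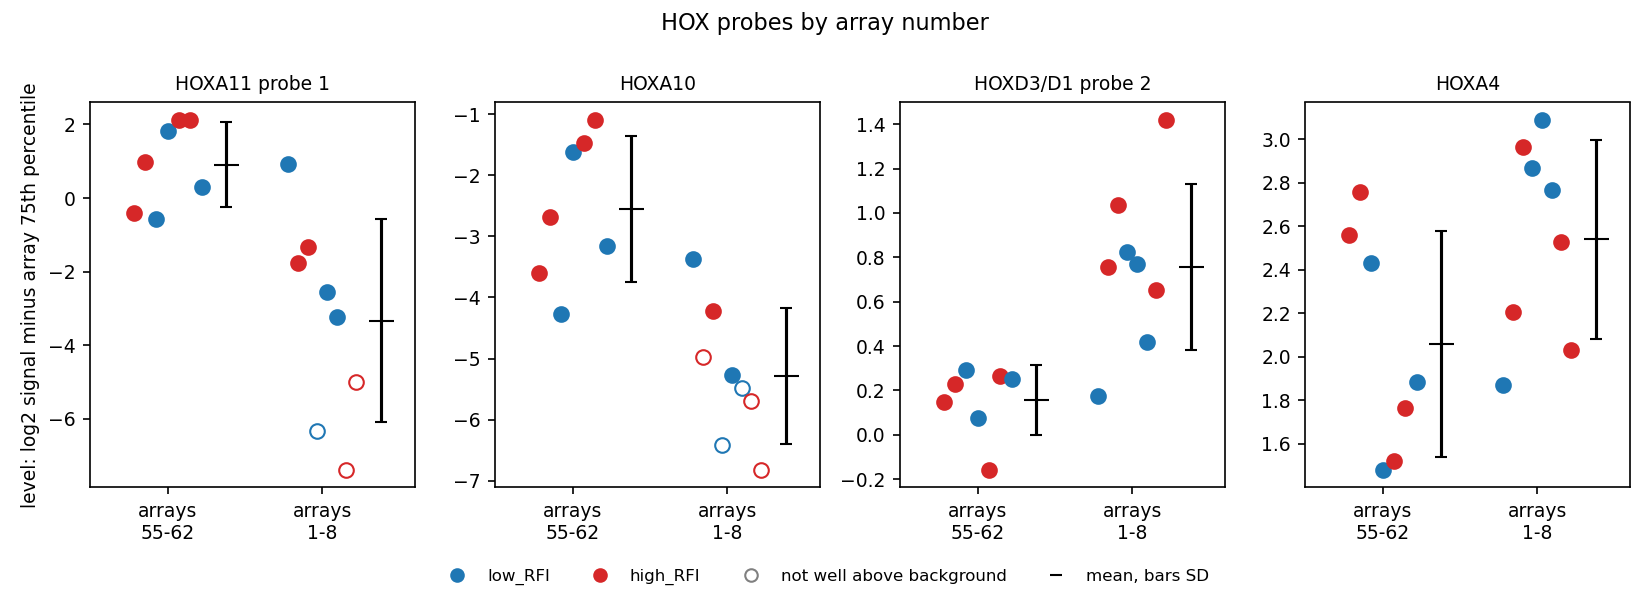
Level of HOXA11 probe 1, HOXA10, HOXD3/D1 probe 2 and HOXA4 in each pig (points, coloured by line), with arrays 55-62 left of arrays 1-8. Open points were not well above background, and the bar beside each set is its mean with SD. HOXA11 and HOXA10 lie higher on arrays 55-62 and HOXD3/D1 and HOXA4 lower, and each pair of sets overlaps.

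Between array numbers, 717 of all 31984 tested probes passed an adjusted p under 0.05, which is 2.24%, with 444 higher (1.39%) and 273 lower (0.854%) on arrays 55-62. Among the 14 tested HOX probes 3 were in that count, HOXA10 and HOXA11 probe 1 on the higher side and HOXD3/D1 probe 2 on the lower. HOXA11 and the comparison by array number were chosen with results known, so the HOX count is a description and nothing is read from it. At an unadjusted p under 0.05 there were 5 of 14 HOX probes, beside 19.7% of all tested probes. None of the 3 calls was made with normexp background correction, without low_RFI pig 6 or without high_RFI pig 3. When each pig was left out in turn, HOXA10 was called in 13 of 15 fits, and HOXA11 probe 1 and HOXD3/D1 in 2 each. The other 11 tested probes were not called. Of these, HOXA11 probe 2 differed by -0.68 ± 0.30 and HOXD10 probe 1 by 0.38 ± 0.18 (SE), and the remaining differences lay between HOXA4 at -0.48 and HOXC4 probe 2 at 0.30. The median difference was -0.17 over the 14 HOX probes and -0.04 over all tested probes. Between 29831 and 34795 probes were above background on arrays 55-62, against 27005 to 33225 on arrays 1-8, and the part of this in the HOX differences was not tested.

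The levels of HOXA10 and HOXA11 probe 1 followed each other closely across pigs. Over 15 pigs Pearson's r was 0.92 and Spearman's rho 0.98, given as a description because HOXA11 was chosen for its pattern on these arrays. Without the 2 pigs farthest from the median r was 0.90, and over the 10 pigs with both probes above background it was 0.96. Within arrays 55-62 r was 0.99 (n = 7), and within arrays 1-8 it was 0.85 (n = 8), where several values are below background. Among 31717 other tested probes with a value on every array, HOXA10 ranked 3 by r to HOXA11 probe 1.

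HOXD3/D1 and HOXA4 had negative correlations with this pair. HOXD3/D1 probe 1 had r of -0.63 with HOXA10 and -0.57 with HOXA11, and HOXA4 had r of -0.61 with HOXA10 and -0.55 with HOXA11. HOXA4 and HOXD3/D1 had r of 0.64 with each other. Within arrays 55-62 and within arrays 1-8 HOXA4 had r of -0.72 and -0.24 with HOXA11, and HOXD3/D1 had -0.45 and -0.43. HOXD8 had r of 0.31 with HOXA11. HOXC4, at the same position as HOXA4, had r of -0.25 with HOXA11 over all pigs and 0.44 within arrays 55-62. These are 36 pairs of 9 labels over the same 15 arrays, which share RNA, slide and scaling, and no p is given.

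**Figure D3:**
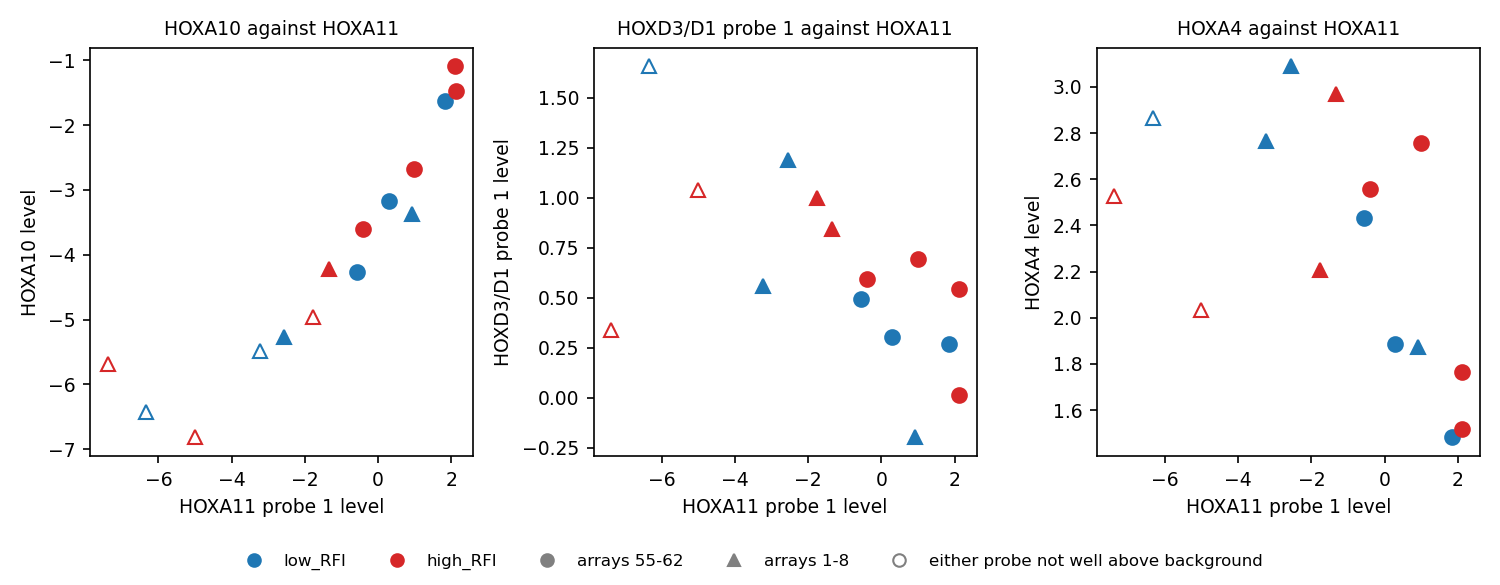
Level of HOXA10, HOXD3/D1 probe 1 and HOXA4 (vertical axes) against HOXA11 probe 1 (horizontal axis), 1 point per pig. Circles are arrays 55-62 and triangles arrays 1-8, coloured by line, and open points had either probe not well above background. HOXA10 rises with HOXA11 (r of 0.92), while HOXD3/D1 and HOXA4 fall with it (r of -0.57 and -0.55).

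The other HOXA11 probes did not share this pattern. Probe 2 had r of -0.23 and probe 3 had r of -0.29 with probe 1 over 15 pigs, and they had 0.50 with each other. Spearman's rho was -0.57, -0.19 and 0.45 in the same order. Probe 2 ran from -5.08 to -3.42 on arrays 55-62, against -4.59 to -2.86 on arrays 1-8, and probe 3 from -5.61 to -4.69 on arrays 55-62, against -5.49 to -4.22 on arrays 1-8. Averaged over the 3 probes, the HOXA11 difference between array numbers was 1.13 ± 0.39 (SE), against 4.27 for probe 1 alone. The large spread is thus a measurement of probe 1, with HOXA10 beside it, and was not seen in the other probes tied to HOXA11. Those 2 probes were dim, with mean levels of -4.25 for probe 2 and -4.94 for probe 3. The lowest level above background was -5.85 to -4.18 per array. Whether probes so near background could show the pattern of probe 1 was not tested. The 2 HOXD3/D1 probes had r of 0.71 with each other, the HOXB13 probes 0.44 and the HOXC4 probes 0.20.

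HOXC4 had a lower mean in low_RFI than in high_RFI pigs by its brighter probe. Probe 1 had levels of -2.16, -2.25, -1.92, -1.91, -2.18, -2.12 and -2.20 in low_RFI pigs 1 to 7. In high_RFI pigs 1 to 8 the levels were -1.70, -1.81, -1.67, -1.55, -1.92, -1.77, -1.87 and -1.82. The 2 highest low_RFI pigs, 3 and 4, were level with high_RFI pig 5, the lowest of its line, and the other 5 low_RFI pigs lay below every high_RFI pig. The mean was -2.11 ± 0.14 in low_RFI pigs and -1.76 ± 0.12 in high_RFI pigs (SD, n = 7 and n = 8), a difference of -0.34 ± 0.080 (SE). It was -0.45, -0.30, -0.34 and -0.31 within slides 1 to 4, -0.33 on arrays 55-62 and -0.38 on arrays 1-8.

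HOXC4 probe 2, a dim probe above background in 5 of 7 low_RFI and 5 of 8 high_RFI pigs, had lowest, median and highest levels of -6.20, -4.88 and -4.60 in low_RFI pigs, against -5.31, -4.84 and -4.45 in high_RFI pigs. Its difference was -0.17 ± 0.20 (SE), less than its spread. The average of the 2 probes differed by -0.26 between lines. Between array numbers HOXC4 probe 1 differed by -0.13 ± 0.07 (SE), with levels from -2.20 to -1.77 on arrays 55-62 and from -2.25 to -1.55 on arrays 1-8.

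**Figure D4:**
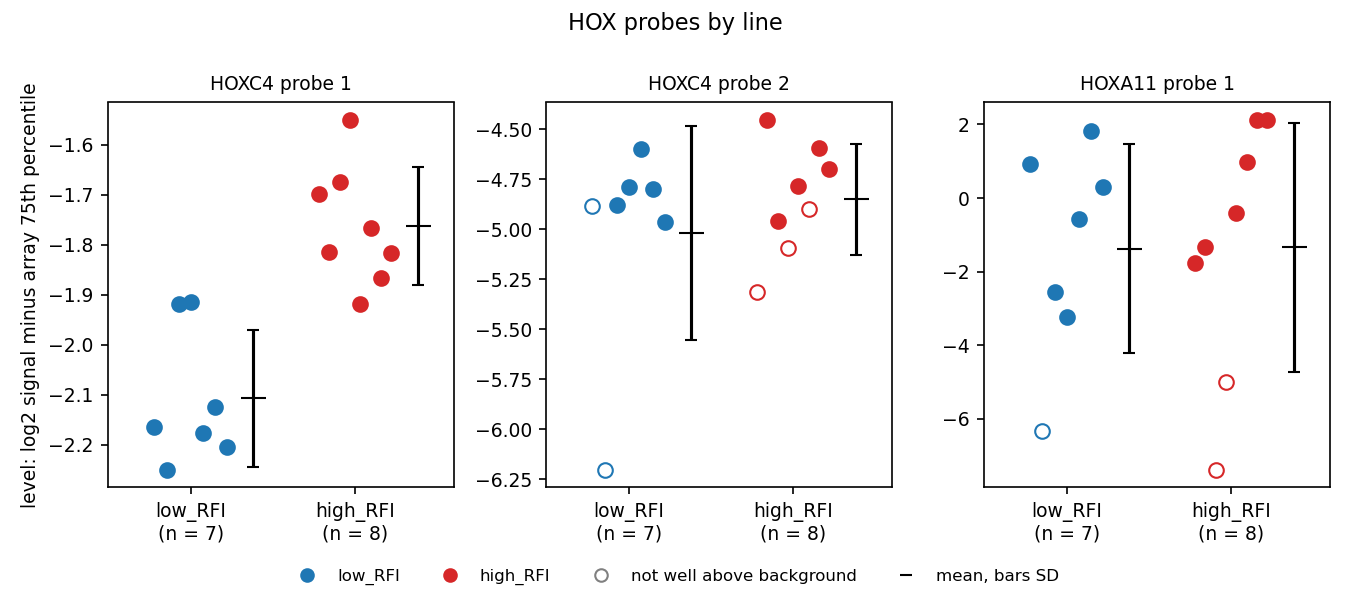
Level of HOXC4 probe 1, HOXC4 probe 2 and HOXA11 probe 1 in each pig, with low_RFI left of high_RFI. Open points were not well above background, and the bar beside each line is its mean with SD. HOXC4 probe 1 lies lower in low_RFI pigs with an overlap near -1.92, and the lines overlap widely in the other panels.

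No HOX probe was called between the lines. With limma and Benjamini-Hochberg adjustment over all tested probes, 0 of 31984 probes (0%) and 0 of 14 HOX probes passed an adjusted p under 0.05. At an unadjusted p under 0.05 there were 2132 probes (6.67%), and none of the 12 HOX probes other than HOXC4 probe 1 and HOXA11 probe 1. Apart from HOXC4 and HOXA11 probe 1, the HOX probe of smallest p was HOXA11B, with lowest, median and highest levels of -7.14, -4.78 and -4.10 in low_RFI pigs, against -5.53, -4.88 and -3.79 in high_RFI pigs. Its difference was -0.61 ± 0.42 (SE; limma adjusted p = 0.874). HOXA11 probe 3 had -5.20, -4.76 and -4.22 in low_RFI pigs, against -5.61, -5.02 and -4.52 in high_RFI pigs, a difference of 0.25 ± 0.19 (SE; limma adjusted p = 0.898). HOXB13 probe 1 had -2.12, -1.58 and -1.13 in low_RFI pigs and -2.17, -1.64 and -1.27 in high_RFI pigs, a difference of 0.15 ± 0.16 (SE; limma adjusted p = 0.956). Over the 14 tested HOX probes 9 were lower and 5 higher in low_RFI pigs, with a median difference of -0.04, beside 0.01 over all tested probes. The lines overlapped in all 14 HOX probes, and they did not overlap in 0.0782% of all tested probes.

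**Figure D5:**
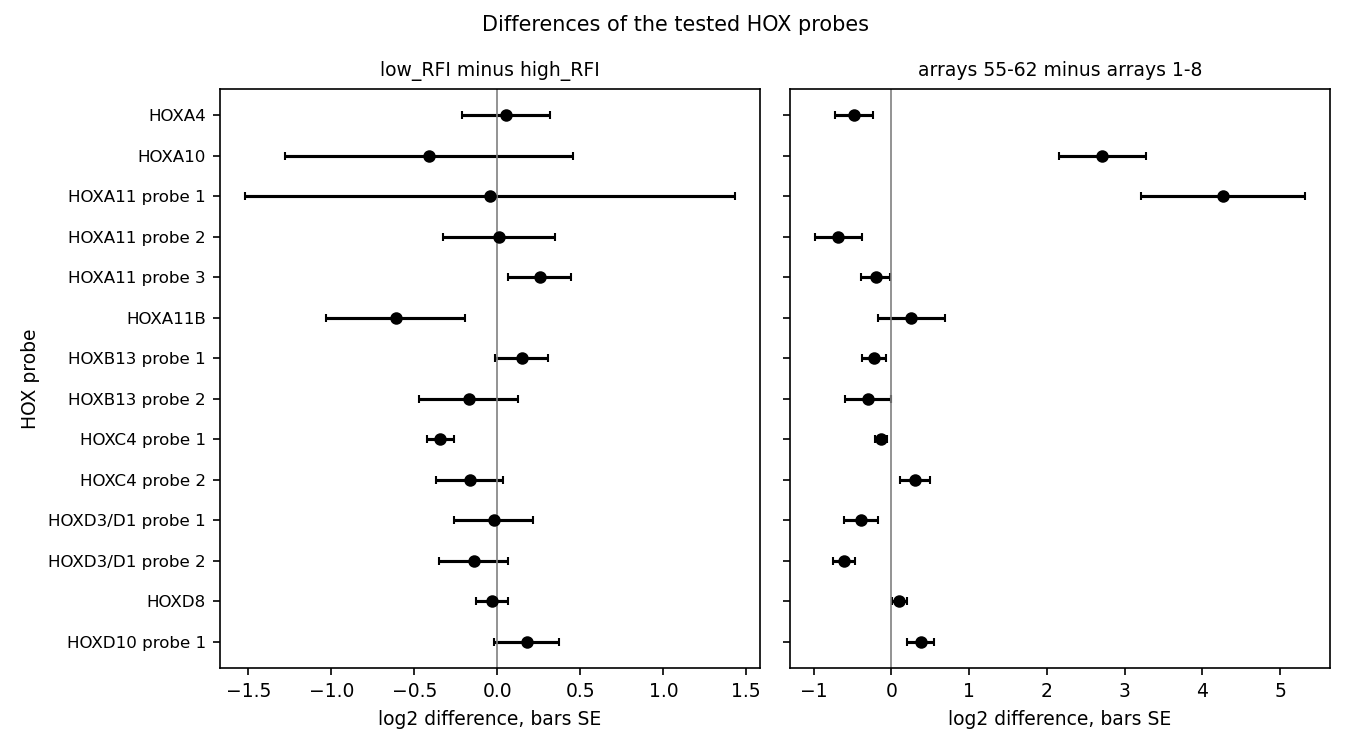
Log2 difference with SE of the 14 tested HOX probes between lines (left panel, low_RFI minus high_RFI) and between array numbers (right panel, 55-62 minus 1-8). Between lines HOXC4 probe 1 stands at -0.34 and HOXA11B at -0.61, and between array numbers HOXA11 probe 1 and HOXA10 stand at 4.27 and 2.71.

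The line difference was also tested for a change between array numbers. With limma, 0 of 31984 probes (0%) and 0 of the 14 HOX probes passed for this interaction, with 1810 probes (5.66%) at an unadjusted p under 0.05. For HOXA11 probe 1 the interaction was -1.75 ± 2.14 and for HOXC4 probe 1 it was 0.05 ± 0.15 (SE).

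HOXD8 was the steadiest of the tested HOX probes, with an SD of 0.165 and levels from 0.99 to 1.38 in low_RFI pigs and from 0.99 to 1.61 in high_RFI pigs. HOXD10 probe 1 lay from -4.82 to -4.01 in low_RFI pigs and from -5.37 to -4.06 in high_RFI pigs. For the 5 untested probes, only an upper bound near the background is known in most pigs. HOXA13 was above background in high_RFI pig 4 alone, at -4.14, and HOXD10 probe 2 in high_RFI pig 7 alone, at -4.25.

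Slide moved with a few HOX probes. The 3 arrays of slide 2, low_RFI pig 1 and high_RFI pigs 2 and 5, gave the 3 highest levels of HOXA11B, HOXB13 probe 2 and HOXA11 probe 2. That is 3 of 14 tested HOX probes, beside 4.03% of 31718 probes with a value on every array. HOXB13 probe 2 averaged -1.67 on slide 2, against -2.77, -3.23 and -3.05 on slides 1, 3 and 4. HOXA11 probe 2 averaged -3.09 on slide 2, against -4.50, -4.50 and -4.61. For these probes the spread between pigs and the spread between slides cannot be told apart.

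The named genes outside the HOX set whose levels were most like HOXA11 probe 1 over the 15 pigs were LDHB, the heart-type lactate dehydrogenase subunit, with r of 0.84, NCOA3, a nuclear receptor coactivator, with 0.83, and NIPSNAP1 and DEFB1, a beta-defensin, with 0.81 each. Within arrays 55-62 their r was 0.87, 0.14, 0.52 and 0.74, and within arrays 1-8 it was 0.68, 0.82, 0.68 and 0.55, in the same order. For HOXC4 probe 1 they were PLA2G6, a phospholipase, with r of 0.81, CCDC62 with 0.80, MTERF3, a regulator of mitochondrial transcription, with 0.79, and NR3C1, the glucocorticoid receptor, with 0.79. Their r was 0.78 to 0.89 within arrays 55-62 and 0.76 to 0.80 within arrays 1-8. Both sets hold pigs of both lines, so these r include the line difference of HOXC4 probe 1, and r within lines was not computed.

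Of the HOX cofactors, the PBX, MEIS and PKNOX proteins that bind DNA together with HOX proteins, 3 of 9 were measured and none passed in either contrast. PBX3 differed by 0.57 ± 0.18 between array numbers (SE; limma adjusted p = 0.110) and by 0.40 ± 0.23 between lines (SE; limma adjusted p = 0.818). PBX2 differed by -0.04 ± 0.11 between array numbers and by -0.08 ± 0.11 between lines (SE). Its probe carries the printed gene name PBX2P1. Of 34 upstream and chromatin regulators of HOX genes, 6 were tested and none passed in either contrast. RING1, a Polycomb protein, differed by -0.17 ± 0.08 between lines (SE; limma adjusted p = 0.762). The retinoic acid receptors RARA and RARB differed by -0.01 and 0.17 between array numbers, and CYP26A1, which breaks down retinoic acid, was above background on no array.

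Of 36 other transcription factors of regional identity 16 were tested, and 2, EMX2 and PITX3, fell on arrays 55-62, beside 0.854% of all tested probes called lower, while none passed between lines. EMX2, a homeobox gene of forebrain and shoulder girdle development, averaged -3.25 ± 0.24 on arrays 55-62 and -2.77 ± 0.10 on arrays 1-8 (SD, n = 7 and n = 8), a difference of -0.48 ± 0.10 (SE; limma adjusted p = 0.0263). PITX3, a homeobox gene of the eye lens, midbrain and muscle, averaged -3.09 ± 0.28 on arrays 55-62 and -2.54 ± 0.30 on arrays 1-8 (SD, n = 7 and n = 8), a difference of -0.58 ± 0.12 (SE; limma adjusted p = 0.0285). ZIC1, a trunk and neural patterning factor, differed by -0.36 ± 0.11 (SE; limma adjusted p = 0.0896) and LBX1, a factor of migrating muscle precursors, by -0.38 ± 0.13 (SE; limma adjusted p = 0.138). The median difference of the 16 was -0.24, beside -0.04 over all tested probes. The mean level of the list ran from -1.95 to -1.75 on arrays 55-62 and from -1.72 to -1.52 on arrays 1-8.

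Markers of other cell types were measured beside these values, and their part in the HOX differences was not tested. Between array numbers 1 of 3 tested genes of the satellite cell list passed, beside 2.24% of all tested probes. It was CHRNA1, a muscle acetylcholine receptor subunit not particular to satellite cells, at 1.34 (limma adjusted p = 0.0144). The other tested members of that list, MYF5 and VCAM1, differed by -0.07 and 0.08. None of the tested skeletal muscle (11), fibroblast and matrix (7), adipocyte (5), endothelium (5), leukocyte (3), smooth muscle (2) or heart muscle (1) markers passed, and none of any list passed between lines. The mean level of the fibroblast and matrix list ran from 1.20 to 1.69 on arrays 55-62 and from 1.38 to 2.08 on arrays 1-8. That of the satellite cell list, which includes CHRNA1, ran from -2.10 to -0.87 on arrays 55-62 and from -2.39 to -1.30 on arrays 1-8. Of the heart markers, NPPA and NPPB were above background on no array, and TNNI3 was above background on all 15, at a mean level of 1.65.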

How the data were processed

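Total RNA (150 ng per pig) was amplified, labelled with Cy3 and hybridised, per the labels' protocols. Per the file headers, the deposited intensity values came from Feature Extraction 10.7.3.1 (protocol GE1_107_Sep09), which subtracts background and does not normalize between arrays. The table of log2 values deposited by the authors, for whom the submitters' processing notes name R 2.10.0, equalled log2 of the processed signal after subtraction of the array median over its 29364 spots (largest difference 4.93e-08) and served as an alternative. No genome build is given in the sources used here, so no coordinates are printed. The probe sequences come from the files.

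The 75th percentile of the 43803 non-control spots of an array was subtracted on the log2 scale to give levels. Non-uniform spots were left out and spots of 1 probe averaged. Testing required a probe to be above background on 7 or more of 15 arrays and to have 4 or more values per line (31984 of 43603 probes). A single gene symbol was found for 12054 probes, a LOC name for 321, and several genes or none for 31228. The RefSeq gene table is of Sscrofa11.1.

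limma 3.58.1 in R 4.3.3 (lmFit and eBayes, with statmod 1.5.0 and version 1.17.8 of data.table) tested low_RFI minus high_RFI, arrays 55-62 minus arrays 1-8 with line as a covariate, and their interaction, two-sided, with Benjamini-Hochberg adjustment over all tested probes. The fit was tested on simulated data first. The members, lists, contrasts and most alternatives were chosen with earlier results of these data known. Raising dim values to a floor, leaving out slide 2, and the counts by slide were added after the data were seen. HOX genes were named in full; other genes by smallest p (up to 4 per list and contrast), by highest level (up to 2 per marker list) or by highest r (4 per gene), and CYP26A1, NPPA, NPPB, CHRNA1 and MYF5 were named after their values were seen. Some genes of these lists are not reported here. For a list gene the brightest tested probe on average was taken, and the 3 blood markers had no probe by name. Each pig had 1 array, so the number of pigs limits the precision, and p-values measure the spread between pigs. Replicate numbers were not used to pair the pigs in the main fits. The correlation of same-numbered pigs' deviations was -0.012 to 0.271 over 7 numbers. Differently numbered pigs were not compared, so these values cannot tell whether the numbers pair the pigs.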

Additional observations from a re-analysis of the deposited data

Results flagged for a closer look

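In 28 groups checked (each tested HOX probe in each line), 2 held a pig whose gap to the nearest other pig was large against the range of its line; chance gives about 1 in 20 such groups. HOXB13 probe 2 was -1.70 in low_RFI pig 1, the next highest low_RFI pig being at -2.64. That array is on slide 2, whose arrays gave the 3 highest levels of this probe. HOXC4 probe 2 was -6.20 in low_RFI pig 2, where it was not above background, the next lowest low_RFI pig being at -4.96.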

How the results depend on the processing

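The count of all probes called between array numbers was 64 with normexp background correction, 360 with no filter on dim probes, 1194 with slide as a random effect (random block) and 1214 with slide as a fixed block, against 717. The count of HOX genes called was 0 with normexp, 1 with no filter on dim probes (HOXA10) and 1 with the filter of 15 arrays (HOXD3/D1; HOXA11 and HOXA10 are then untested), against 3. It was 2 with quantile normalization (without HOXA11), with the array median (without HOXD3/D1) and with the deposited values (without HOXA10, with 6 HOX labels tested). Between lines, the count of all probes was 1 with no filter and 1 without slide 2, against 0, and the HOX count was 0 in all 14 alternatives run. Averaged over its probes, HOXA11 differed by 1.13 between array numbers and HOXC4 by 0.082, against -0.13 for its probe 1. HOX genes detected numbered 5 when 15 arrays were required, against 9. Leaving out each pig in turn gave 348 to 1159 probes and 0 to 3 HOX genes between array numbers, and 0 to 2 probes and 0 HOX genes between lines. HOXA11 then ranged from 3.62 to 4.86 between array numbers and from -0.91 to 0.78 between lines, and HOXC4 from -0.16 to -0.11 and from -0.38 to -0.31. The cause was not tested. With the replicate block there were 803 probes and 3 HOX genes called between array numbers and 0 between lines, HOXA11 differed by 4.27 and HOXC4 by -0.13 between array numbers, and HOXC4 by -0.34 between lines. Signals near background limit HOXA11, HOXA10 and HOXC4 probe 2.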
